A study of Mus musculus with 12 samples.

Results

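The mitochondrial carrier family (solute carrier family 25, SLC25) was examined in gastrocnemius, the main calf muscle, of running and resting mice. Members were taken as the rows of the count table whose identifier has a protein-coding symbol of the form Slc25a plus a number. Slc25a4, Slc25a5 and Slc25a20 were left out by that rule, and at least 15 counts were required over the 12 libraries. The rule gave 37 genes of 43432 identifiers. It used only names and summed counts, no difference between groups. Of 47 such symbols, 3 were those left out by name and 7 were under the minimum, namely Slc25a18 with 7 counts, Slc25a43 with 3 counts, and Slc25a21, Slc25a31, Slc25a41, Slc25a48 and Slc25a54 with 0 counts. The tests covered 36 members, because Slc25a2, with 30 counts in all, fell under the filter on low counts.

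Carriers of this family sit in the inner mitochondrial membrane and exchange metabolites, nucleotides, phosphate and cofactors between the cytosol and the matrix. In muscle they bring in the phosphate that ATP synthase uses, shuttle reducing equivalents as malate and aspartate, and adjust the pool of adenine nucleotides in the matrix when calcium rises. Most are imported unprocessed through the TOM70 receptor of the outer membrane and the TIM22 complex of the inner membrane. A few work elsewhere, Slc25a17 in the peroxisome and Slc25a46 in the outer membrane.

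The study asked how loss of cellular Feimin (cFeimin) affects muscle during a long, low-intensity run. All animals were male, and the labels do not state their ages. Exercised MKO mice lacked cFeimin and were taken after a 90-min run at 60% of their maximal speed. Exercised WT mice, with both alleles floxed (fl/fl), made the same run. Sedentary MKO and sedentary WT mice did not run. The labels do not spell out the M of MKO, and they name neither the Cre driver nor the time between the run and sampling. There were 3 libraries in each group, and the labels list every library as its own sample. The p-values reflect the spread among these 12 samples, which may be in part technical.

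Libraries held 14324010 to 14563501 counts, and 18502 to 19559 genes had at least 1 count. The transcript taken as Feimin, B230219D22Rik, had 3.52 to 6.13 CPM in the 6 MKO libraries, against 21.6 to 29.9 CPM in the 6 WT libraries. Skeletal muscle markers were abundant in every library, with 91173 to 129912 CPM summed over 8 genes such as Acta1 and Ckm. Within each group no library was a duplicate of another, and this check did not cover pairs from different groups. Sedentary MKO replicate 3 stood apart, with a summed level of 8 slow-fibre genes of 115 CPM, against 595 to 1898 CPM in the other 11 libraries, and the smallest share of counts from the mitochondrial genome (16.9%, against up to 24.3%). Exercised WT replicate 5 and exercised MKO replicate 4 held the lowest value of 20% and 15% of all genes tested. Values without these 3 libraries are given wherever they change a call.

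Here CPM stands for counts per 1000000 counts of the normalised library, and levels of different genes are ranked as CPM per kilobase of exon. Exon length is that of all annotated exons of a gene merged, which may exceed the transcript present, and the order depends on it. Slc25a3, the phosphate carrier, had the highest level of the 37 members, 152 CPM per kilobase on average over the 12 libraries (109 to 181). Slc25a11, which exchanges oxoglutarate for malate, followed at 93.1 (69.4 to 113). Next came Slc25a12 (aralar), the calcium-stimulated aspartate-glutamate carrier, at 44.7 (32.1 to 50.4) CPM per kilobase. These 3 carriers had the highest means in each of the 4 groups. Slc25a3 alone made up 43.1% of the normalised counts of the family, Slc25a12 16.7% and Slc25a11 10.1%, without regard to length. As shares of CPM per kilobase these were 36.1%, 10.6% and 22.1%, so that Slc25a11 and Slc25a12 change places.

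The middle of the order was led by Slc25a25, a calcium-regulated carrier of ATP-Mg and phosphate, at 19.1 CPM per kilobase (3.4 to 33.9). Slc25a39, linked to glutathione import, stood at 17.4, and Slc25a33, a pyrimidine nucleotide carrier, at 14.9 CPM per kilobase. Levels between 5.87 and 7.81 CPM per kilobase were measured for Slc25a28 (mitoferrin 2, iron), Slc25a51 (NAD), Slc25a44 (branched-chain amino acids) and Slc25a46. Below them, from 4.67 down to 2.26 CPM per kilobase, came Slc25a42 (coenzyme A), Slc25a34, Slc25a16, Slc25a38 (glycine for haem), Slc25a37 (mitoferrin 1, iron), Slc25a26 (S-adenosylmethionine), Slc25a23 (ATP-Mg), Slc25a36 (pyrimidine nucleotides), Slc25a35 and Slc25a29 (basic amino acids).

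At the low end were Slc25a22 (glutamate, 2.15 CPM per kilobase), Slc25a17 (1.95), Slc25a30 (1.54), Slc25a27 (1.47), Slc25a15 (1.33), Slc25a24 (1.03), Slc25a10 (0.888), Slc25a47 (0.852) and Slc25a1 (0.85). Slc25a13 (citrin), the second aspartate-glutamate carrier and prominent in liver, had only 0.132 CPM per kilobase and was at 0 counts in sedentary WT replicate 1. Slc25a45, Slc25a14, Slc25a32, Slc25a40, Slc25a2 and Slc25a53 had 0.0857 to 0.43 CPM per kilobase. Between neighbours in this order the ranges over the 12 libraries overlapped, with the exception of Slc25a11 and Slc25a12.

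**Figure D1:**
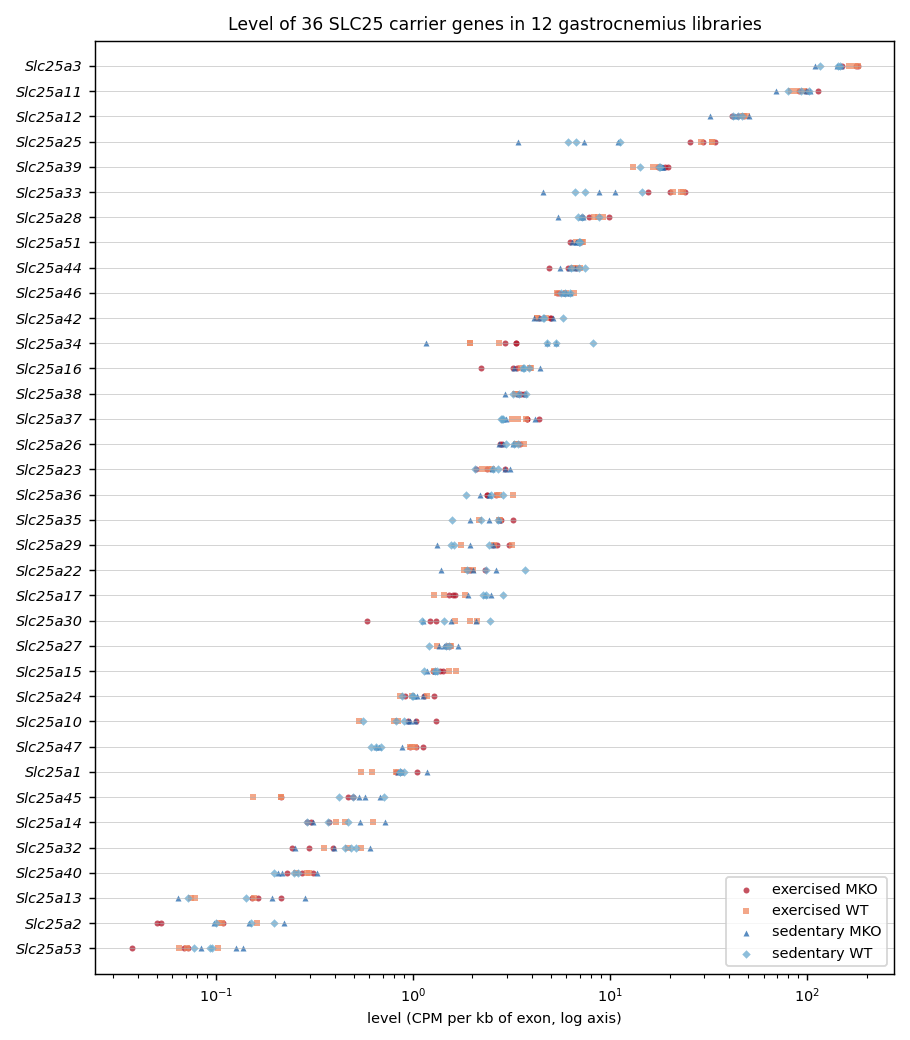
Level of 36 of the 37 carriers in CPM per kilobase of exon on a log axis, with 1 point per library coloured by group. The 0 of Slc25a13 in sedentary WT replicate 1 cannot be drawn on it. Slc25a3, Slc25a11 and Slc25a12 are at the top, and the points of Slc25a25, Slc25a33 and Slc25a34 spread most widely for their level.

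How much members varied differed widely. Slc25a51, the NAD carrier, was the steadiest, with a within-group coefficient of variation of 4.13% and a highest library only 1.16-fold above its lowest. Among members with counts in every library, Slc25a25 had the widest span, 9.96-fold between its highest and lowest library, followed by Slc25a34 with 7.1-fold and Slc25a33 with 5.22-fold. The median within-group coefficient of variation over the members was 12.9%.

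The first question was how the run changed the carriers. Fitted over both genotypes with edgeR's quasi-likelihood test, 6 of 36 members passed a Benjamini-Hochberg adjusted p under 0.05, 16.7% of them, against 13.6% of all 14486 genes tested. The share of members called was thus near that of all genes. Slc25a25, Slc25a33, Slc25a47 and Slc25a3 rose in exercised muscle, where 6.16% of all genes did, and Slc25a17 and Slc25a45 fell, as did 7.4% of all genes. With total counts as the only scaling, 3 rose and 3 fell, and the median of all genes moved by -0.12 on the log2 scale. The other 30 members did not pass. Groups of 6 libraries did not overlap for 5 members, Slc25a25, Slc25a33, Slc25a47, Slc25a3 and Slc25a17, against 7.58% of all genes, 3.75% with exercised muscle higher and 3.83% with it lower. The median log2 fold change was 0.035 over the members and -0.00047 over all genes, with 21 of 36 members positive.

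Within 1 genotype fewer members passed. In MKO muscle 2 of 36 passed, Slc25a25 and Slc25a33, both higher in exercised mice, against 4.05% of all genes, 2.29% higher and 1.75% lower. In WT muscle 5 of 36 passed, against 8.24% of all genes, with Slc25a25, Slc25a33 and Slc25a47 higher (4.14% of all genes) and Slc25a17 and Slc25a45 lower (4.1% of all genes) in exercised mice. Groups did not overlap for 8 members in MKO muscle, against 21.7% of all genes, and for 10 in WT muscle, against 27.3%. Total counts alone as scaling gave 2 higher and 1 lower in MKO muscle, and 2 higher and 3 lower in WT muscle. In MKO muscle Slc25a25 alone was called without any 1 of exercised MKO replicates 2 and 4, sedentary MKO replicate 2, the exercised WT replicates and sedentary WT replicate 4. Without sedentary MKO replicate 3 the 2 members called there were Slc25a25 and Slc25a37, and Slc25a33 was not called. In WT muscle 1 member was called when exercised WT replicate 3, exercised WT replicate 4 or sedentary WT replicate 3 was left out, and 3 when exercised WT replicate 5 or sedentary WT replicate 4 was.

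Connective tissue and blood markers moved with the run, and their part in the results on the carriers was not tested. The 6 fibroblast genes summed to 243 to 368 CPM in exercised MKO, 235 to 265 CPM in exercised WT, 543 to 570 CPM in sedentary MKO and 410 to 517 CPM in sedentary WT muscle. Over both genotypes 5 of the 6 were called lower in exercised muscle. The 6 red blood cell genes summed to 513 to 837 CPM, 447 to 574 CPM, 1358 to 2279 CPM and 419 to 1685 CPM in the same order of groups. All 6 had negative log2 fold changes over both genotypes, and 4 were called lower. Of 6 endothelial genes 4 were called lower and 1, Flt1, higher, with sums of 128 to 177 CPM, 168 to 213 CPM, 162 to 220 CPM and 170 to 221 CPM. All 8 macrophage genes had negative log2 fold changes over both genotypes, and 3 were called lower. Their sums were 61 to 147 CPM, 45.8 to 57.1 CPM, 112 to 155 CPM and 71 to 104 CPM. Of 8 skeletal muscle, 8 slow-fibre, 4 adipocyte and 5 Schwann cell genes tested, 0 were called over both genotypes. All but 1 of the 8 skeletal muscle genes had positive log2 fold changes there. The muscle genes summed to 109804 to 123902 CPM, 112320 to 129912 CPM, 95532 to 109306 CPM and 91173 to 114372 CPM in the same order of groups. All but 1 slow-fibre gene and all 5 Schwann cell genes were also positive, and all 4 adipocyte genes were negative. The part of muscle content in the carrier values was not tested. None of the markers on the first 4 lists was at 0 in all libraries. In whole muscle, fewer cells of a type and less RNA per cell cannot be told apart.

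Slc25a25 (ENSMUSG00000026819, chr2:32414487-32451445, minus strand, GRCm38.p6) changed most among the carriers. It belongs to a small group with calcium-binding domains that exchange ATP-Mg for phosphate and so set the adenine nucleotide content of the matrix. RefSeq lists 3 start sites for the gene, and which of them was used cannot be read from counts per gene. Windows upstream of the outermost of these starts and of Slc25a33 are shown because these 2 members rose most with the run. Those of Slc25a3 and Slc25a47, which also rose, are not shown. That of Slc25a36 is shown because it is the other member whose window holds TGACGTCA. Capitals mark TGACGTCA, the cyclic AMP response element, or in Slc25a33 its half-site CGTCA. All are from RefSeq on GRCm38.p6, minus strand, 5′ to 3′, cut before the first annotated exon base. The windows are chr2:32424067-32424316 for the downstream and chr2:32451471-32451720 for the upstream start of Slc25a25, chr4:149774278-149774517 for Slc25a33 and chr9:97111158-97111291 for Slc25a36:
Slc25a25, downstream start: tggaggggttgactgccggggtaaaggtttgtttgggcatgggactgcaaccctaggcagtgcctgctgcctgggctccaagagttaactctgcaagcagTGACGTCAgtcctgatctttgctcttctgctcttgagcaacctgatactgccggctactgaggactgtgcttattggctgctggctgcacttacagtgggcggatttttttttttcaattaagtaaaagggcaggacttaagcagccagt
Slc25a25, upstream start: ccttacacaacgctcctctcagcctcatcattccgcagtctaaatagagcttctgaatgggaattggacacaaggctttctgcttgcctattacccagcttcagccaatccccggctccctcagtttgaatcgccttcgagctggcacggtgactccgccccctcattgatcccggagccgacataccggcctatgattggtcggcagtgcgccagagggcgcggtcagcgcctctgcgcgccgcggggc
Slc25a33: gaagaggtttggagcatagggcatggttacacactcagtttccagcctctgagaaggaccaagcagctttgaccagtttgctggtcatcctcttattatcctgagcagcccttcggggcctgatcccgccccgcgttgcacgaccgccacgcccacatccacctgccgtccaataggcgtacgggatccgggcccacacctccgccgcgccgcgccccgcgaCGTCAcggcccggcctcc
Slc25a36: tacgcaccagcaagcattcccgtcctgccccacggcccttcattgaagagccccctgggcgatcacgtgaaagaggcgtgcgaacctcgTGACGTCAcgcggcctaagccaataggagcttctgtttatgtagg

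The full element stood at -150 to -143 from the start in the first Slc25a25 window, and in neither of the other Slc25a25 windows. In Slc25a36 it stood at -161 to -154, and the half-site of Slc25a33 at -28 to -24. TGACGTCA, which reads the same on both strands, occurred in 1.55% of 32851 mouse windows of the same length and in 2 of 36 windows of 27 members. The half-site TGACG or CGTCA, which lies inside the full element, occurred in 17.8% of all windows and in 11 of the 36. Besides the genes shown, these were windows of Slc25a3, which rose, and of members not called. The latter were Slc25a13, Slc25a14, Slc25a16, Slc25a28, Slc25a40 and Slc25a53. TGAGTCA (AP-1), CACGTG (E-box) and AAGGTCA (nuclear receptor half-site), each searched on both strands, occurred in 4.46%, 6.02% and 4.08% of all windows and in 1, 7 and 1 of the 36. A match is a description of these letters, and no binding was measured.

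In every library of the exercised groups Slc25a25 stood above every sedentary library. It had 233, 266 and 199 CPM in exercised MKO muscles, 259.8, 257 and 226 CPM in exercised WT muscles, 57.7, 26.7 and 86.3 CPM in sedentary MKO muscles and 87.8, 47.9 and 52.5 CPM in sedentary WT muscles. The groups of the 2 states did not overlap, and the sedentary libraries varied more in proportion, with sedentary MKO replicate 2 lowest. Group means were 233 ± 33.5 CPM in exercised MKO, 248 ± 18.9 CPM in exercised WT, 56.9 ± 29.8 CPM in sedentary MKO and 62.8 ± 21.8 CPM in sedentary WT muscle (SD, n = 3 each). The log2 fold change over both genotypes was 2.01 ± 0.25 (adjusted p = 0.000211), a 4.02-fold difference. It was 2.03 ± 0.35 in MKO (adjusted p = 0.00684) and 1.98 ± 0.35 in WT muscle (adjusted p = 0.00417). The responses of MKO and WT muscle differed by 0.052 ± 0.48 (adjusted p = 0.996). Slc25a25 was called in all 3 exercise comparisons under every alternative. A gene on the opposite strand, Naif1, shares 379 exonic bases with it, and had 440 counts in all, against 25436 for Slc25a25. Of the other calcium-regulated ATP-Mg carriers, Slc25a24 was at 0.07 ± 0.11 on the log2 scale (adjusted p = 0.764) and Slc25a23 at -0.12 ± 0.10 (adjusted p = 0.522).

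**Figure D2:**
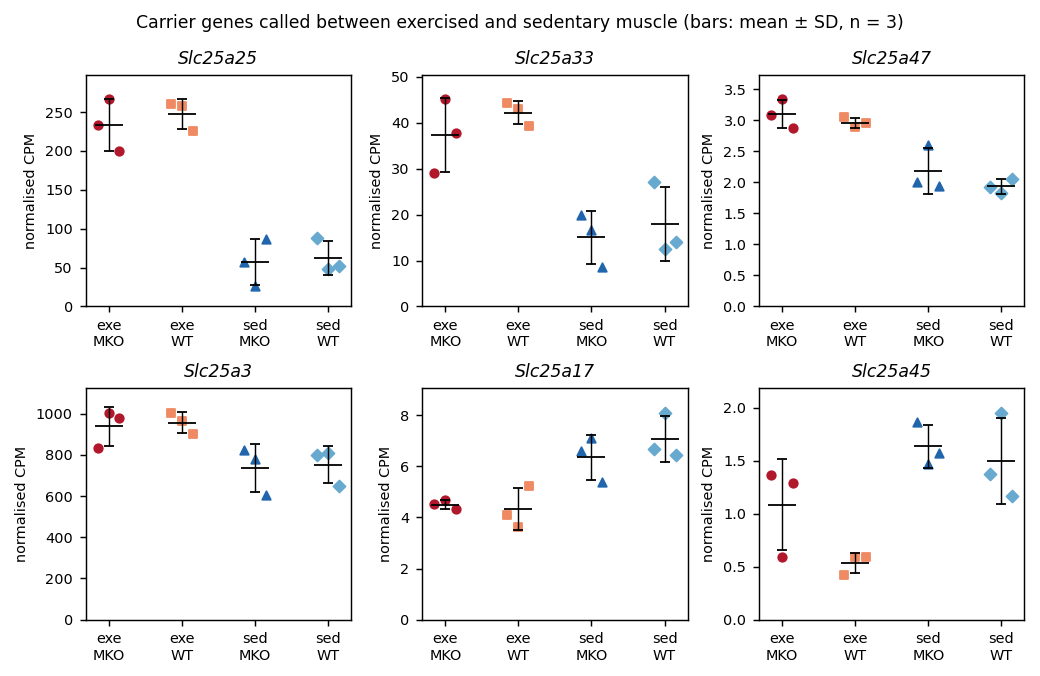
Normalised CPM in each library for the 6 carriers called between exercised and sedentary muscle over both genotypes, by group, with bars at the mean ± SD (n = 3). All 6 exercised libraries lie above all 6 sedentary ones for Slc25a25, Slc25a33, Slc25a47 and Slc25a3 and below them for Slc25a17, and the states overlap for Slc25a45.

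Slc25a33 (ENSMUSG00000028982, chr4:149744036-149774277, minus strand) carries pyrimidine nucleotides into mitochondria. It had 29.2, 45.1 and 37.8 CPM in exercised MKO muscles, 44.4, 43 and 39.4 CPM in exercised WT muscles, 19.9, 16.6 and 8.65 CPM in sedentary MKO muscles and 27.2, 12.5 and 14.1 CPM in sedentary WT muscles. The lowest exercised library, MKO replicate 1, lay just above the highest sedentary one, WT replicate 1. Group means were 37.4 ± 7.98 CPM in exercised MKO, 42.3 ± 2.58 CPM in exercised WT, 15 ± 5.76 CPM in sedentary MKO and 17.9 ± 8.09 CPM in sedentary WT muscle (SD, n = 3 each). Over both genotypes the log2 fold change was 1.28 ± 0.22 (adjusted p = 0.00246), 1.32 ± 0.32 in MKO (adjusted p = 0.0404) and 1.24 ± 0.32 in WT muscle (adjusted p = 0.0313). In MKO muscle the call was lost without exercised MKO replicate 2 or 4 or sedentary MKO replicate 2 or 3 (adjusted p 0.0994 to 0.154), or without exercised WT replicate 3, 4 or 5 or sedentary WT replicate 4 (adjusted p 0.0528 to 0.0641). In WT muscle it was lost without any WT library but sedentary replicate 1 (adjusted p 0.0648 to 0.126), and with no filter. The MKO call of Slc25a33 was also lost with no filter, with only the compared groups and with a replicate block. The other pyrimidine carrier, Slc25a36, whose window holds the full element, was at 0.16 ± 0.10 on the log2 scale (adjusted p = 0.377).

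Slc25a3 (ENSMUSG00000061904, chr10:91116574-91124059, minus strand) supplies the phosphate for ATP synthesis. It had 832, 1005 and 979.6 CPM in exercised MKO muscles, 1003, 965 and 901 CPM in exercised WT muscles, 826, 781 and 605 CPM in sedentary MKO muscles and 799, 811 and 648 CPM in sedentary WT muscles. Exercised MKO replicate 1 lay close to the highest sedentary libraries, and the other 5 exercised libraries well above them. The log2 fold change was 0.35 ± 0.10 over both genotypes (adjusted p = 0.0334). Within a genotype it was 0.35 ± 0.14 in MKO (adjusted p = 0.236) and 0.35 ± 0.14 in WT muscle (adjusted p = 0.162). The call was lost without any 1 of exercised MKO replicates 2 and 4, exercised WT replicates 3 and 4, sedentary MKO replicate 2 and sedentary WT replicate 4 (adjusted p 0.0503 to 0.0816), under total counts alone (adjusted p = 0.0889) and with a replicate block (adjusted p = 0.0933).

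Slc25a47 (ENSMUSG00000048856, chr12:108836046-108856815, plus strand), a carrier studied mainly in liver, was low in muscle. Its values were 3.08, 3.33 and 2.87 CPM in exercised MKO muscles, 3.04, 2.88 and 2.95 CPM in exercised WT muscles, 2.0, 2.61 and 1.94 CPM in sedentary MKO muscles and 1.92, 1.82 and 2.06 CPM in sedentary WT muscles. Behind them stood 45, 45 and 40 counts in exercised MKO, 43, 39 and 40 in exercised WT, 30, 39 and 32 in sedentary MKO and 28, 27 and 30 in sedentary WT libraries. The states did not overlap, although sedentary MKO replicate 2 came near the exercised range. Over both genotypes this gave a log2 fold change of 0.56 ± 0.10 (adjusted p = 0.00332), 0.51 ± 0.14 in MKO (adjusted p = 0.111) and 0.61 ± 0.15 in WT muscle (adjusted p = 0.0336). In WT muscle the call was lost whichever of the 6 WT libraries was left out, and under DESeq2 (adjusted p = 0.216), total counts alone (adjusted p = 0.0865) and a replicate block (adjusted p = 0.0934). Its neighbour Slc25a29, which carries basic amino acids, lies on the minus strand. The annotated starts of both genes face away from each other, with 162 bases between them. Slc25a29 was at 0.47 ± 0.19 on the log2 scale over both genotypes (adjusted p = 0.13).

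Slc25a17 (ENSMUSG00000022404, chr15:81318911-81360812, minus strand), a peroxisomal carrier of coenzyme A, FAD and NAD, was lower after the run. It had 4.52, 4.67 and 4.31 CPM in exercised MKO muscles, 4.11, 3.62 and 5.24 CPM in exercised WT muscles, 6.6, 7.09 and 5.38 CPM in sedentary MKO muscles and 6.67, 8.09 and 6.45 CPM in sedentary WT muscles. Its highest exercised library, WT replicate 5, lay just under its lowest sedentary one, MKO replicate 3. On the log2 scale the difference was -0.60 ± 0.11 over both genotypes (adjusted p = 0.0033), -0.50 ± 0.16 in MKO (adjusted p = 0.119) and -0.71 ± 0.16 in WT muscle (adjusted p = 0.0152). In WT muscle the call ended when exercised WT replicate 3, exercised WT replicate 4 or sedentary WT replicate 3 was left out (adjusted p 0.0666 to 0.0683), and with the compared groups alone in the fit (adjusted p = 0.0507).

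Slc25a45 (ENSMUSG00000024818, chr19:5877808-5885878, plus strand) is among the least studied members. Its counts were low, with 20, 8 and 18 counts in exercised MKO, 6, 8 and 8 in exercised WT, 28, 22 and 26 in sedentary MKO and 20, 29 and 17 in sedentary WT libraries. As levels these were 1.37, 0.593 and 1.29 CPM in exercised MKO muscles, 0.425, 0.591 and 0.59 CPM in exercised WT muscles, 1.87, 1.47 and 1.57 CPM in sedentary MKO muscles and 1.37, 1.96 and 1.17 CPM in sedentary WT muscles. The exercised WT libraries were lowest, and the 2 states overlapped only through exercised MKO replicates 1 and 4. Fitted log2 fold changes were -1.03 ± 0.22 over both genotypes (adjusted p = 0.00921), -0.58 ± 0.29 in MKO (adjusted p = 0.395) and -1.48 ± 0.34 in WT muscle (adjusted p = 0.0182). The difference between these responses was 0.90 ± 0.45 (adjusted p = 0.983). In WT muscle the call was lost when exercised WT replicate 3, exercised WT replicate 4 or sedentary WT replicate 3 was left out (adjusted p 0.0502 to 0.0828).

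**Figure D3:**
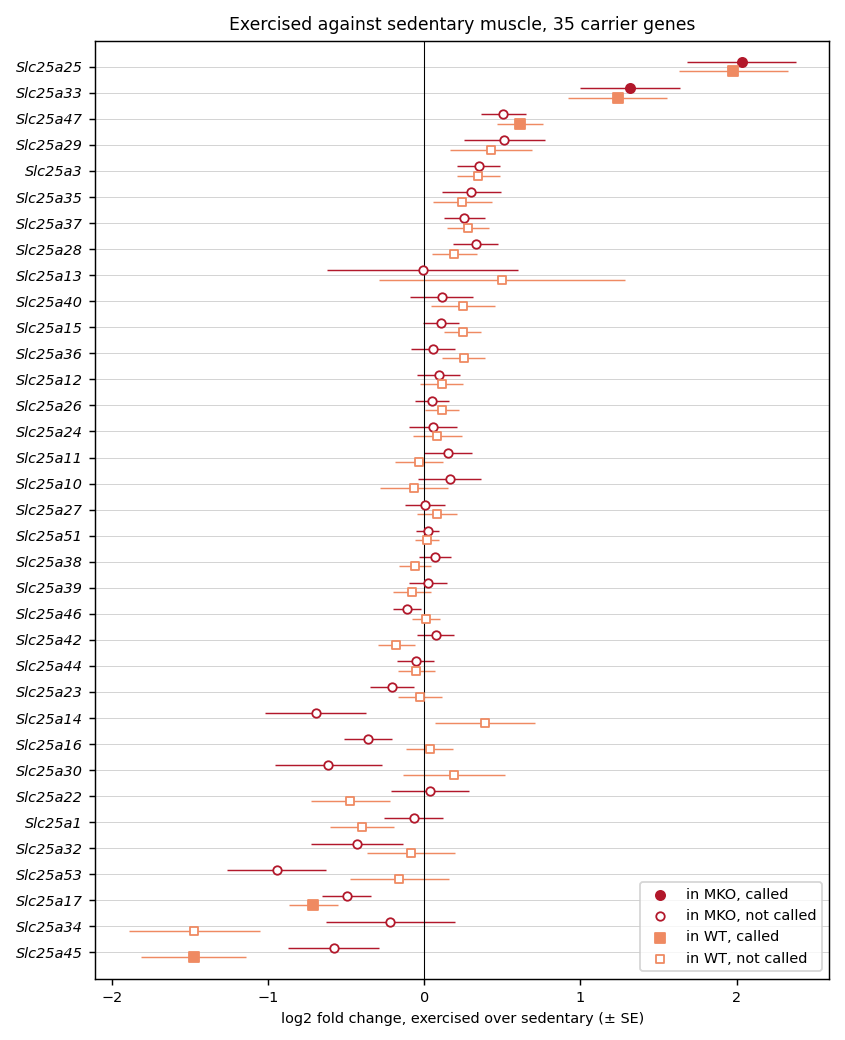
Log2 fold change of exercised over sedentary muscle for 35 of the 36 tested carriers, in MKO (circles) and WT (squares) muscle, with bars of 1 standard error and filled symbols for calls. Slc25a25 at 2.03 in MKO and 1.98 in WT muscle is farthest to the right, Slc25a45 at -1.48 in WT muscle farthest to the left, and the 2 genotypes lie close together for Slc25a25, Slc25a33, Slc25a47 and Slc25a3.

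The malate-aspartate, dicarboxylate and tricarboxylate carriers gave 0 calls among 6 members. Slc25a11 had 192, 208 and 240.3 CPM in exercised MKO muscles, 205, 189 and 175 CPM in exercised WT muscles, 219, 210.0 and 147 CPM in sedentary MKO muscles and 197, 217 and 169 CPM in sedentary WT muscles. Slc25a12 had 328, 350.0 and 306 CPM in exercised MKO muscles, 363, 349 and 345 CPM in exercised WT muscles, 316, 369.8 and 236 CPM in sedentary MKO muscles and 343, 308 and 326 CPM in sedentary WT muscles. Their groups overlapped, with the exception that the lowest exercised WT value of Slc25a12 lay just above its highest sedentary WT value. Their log2 fold changes over both genotypes were 0.059 ± 0.11 for Slc25a11 (adjusted p = 0.800) and 0.10 ± 0.10 for Slc25a12 (adjusted p = 0.574), and they turned to -0.059 and -0.015 under total counts alone. Slc25a13, with at most 16 counts per library, had 0.24 ± 0.49 (adjusted p = 0.821). Slc25a10, which exchanges dicarboxylates for phosphate, had 0.048 ± 0.15, Slc25a22 -0.22 ± 0.18 and the citrate carrier Slc25a1 -0.23 ± 0.14 as log2 fold changes, none called.

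The 3 relatives of the uncoupling proteins did not pass. Slc25a30 had 5.55, 6.0 and 2.66 CPM in exercised MKO muscles, 7.43, 9.68 and 8.92 CPM in exercised WT muscles, 5.13, 7.09 and 9.5 CPM in sedentary MKO muscles and 11.2, 5.06 and 6.52 CPM in sedentary WT muscles. Exercised and sedentary libraries overlapped. Its log2 fold change over both genotypes was -0.21 ± 0.24 (adjusted p = 0.647), that of Slc25a14 -0.15 ± 0.23 and that of Slc25a27 0.043 ± 0.09.

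Of 9 nucleotide, coenzyme and vitamin carriers, 7 did not pass besides Slc25a33 and Slc25a17. The NAD carrier Slc25a51 had a log2 fold change of 0.02 ± 0.053. Slc25a42, a coenzyme A carrier, had -0.051 ± 0.084 and Slc25a16, also linked to coenzyme A, -0.16 ± 0.11 as log2 fold changes. Slc25a53, a little studied relative, had -0.55 ± 0.22 at 4 to 18 counts per library (adjusted p = 0.165). The folate carrier Slc25a32 had -0.26 ± 0.20 (adjusted p = 0.492).

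Among the other amino acid carriers, Slc25a44, which brings branched-chain amino acids into mitochondria and is studied for fuel use in brown fat, had 21.8, 23.9 and 17.5 CPM in exercised MKO muscles, 23.2, 25.1 and 23.4 CPM in exercised WT muscles, 19.9, 23.8 and 22.1 CPM in sedentary MKO muscles and 24.9, 22.7 and 26.6 CPM in sedentary WT muscles. Its groups overlapped, and its log2 fold change over both genotypes was -0.052 ± 0.082 (adjusted p = 0.763). Slc25a15 (ornithine) had 0.18 ± 0.083 (adjusted p = 0.204) and Slc25a38 0.007 ± 0.073 (adjusted p = 0.967) as log2 fold changes.

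The iron, glutathione and methyl donor carriers gave 0 calls among 5 members, 4 of them with positive log2 fold changes. Slc25a37, mitoferrin 1, had 22.8, 22.8 and 26.2 CPM in exercised MKO muscles, 22.5, 19.1 and 20.5 CPM in exercised WT muscles, 17.9, 17.2 and 25 CPM in sedentary MKO muscles and 17.3, 17.1 and 16.8 CPM in sedentary WT muscles. Sedentary MKO replicate 3 lay among the exercised libraries, and the other 5 sedentary libraries below all exercised ones. The log2 fold change over both genotypes was 0.27 ± 0.094 (adjusted p = 0.0857), and without sedentary MKO replicate 3 it was 0.38 (adjusted p = 0.00311). Slc25a28, mitoferrin 2, had 0.26 ± 0.10 (adjusted p = 0.128). Mitoferrin 1 is abundant in the red blood cell lineage. In the same comparison all 6 red blood cell genes had negative log2 fold changes, and 4 were called lower. The part of blood in the Slc25a37 values was not tested.

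Slc25a34, whose substrate is little characterised, had a within-group coefficient of variation of 38.6%, the highest after that of Slc25a13 among the members tested. It had 8.84, 7.85 and 8.91 CPM in exercised MKO muscles, 5.17, 5.17 and 7.3 CPM in exercised WT muscles, 12.7, 14.1 and 3.08 CPM in sedentary MKO muscles and 14.2, 21.9 and 12.8 CPM in sedentary WT muscles. Sedentary MKO replicate 3 held the lowest of the 12 values, while every other sedentary library lay above every exercised one. As a log2 fold change this was -0.84 ± 0.29 over both genotypes (adjusted p = 0.0856), -0.22 ± 0.41 in MKO (adjusted p = 0.882) and -1.47 ± 0.42 in WT muscle (adjusted p = 0.0526). Without sedentary MKO replicate 3 the value over both genotypes was -1.05 (adjusted p = 0.00102) and that in WT muscle -1.45 (adjusted p = 0.00149). That library enters the WT comparison only through the model, filter and scaling shared by all libraries. Slc25a34 was also called in WT muscle without sedentary MKO replicate 2, under DESeq2, and with only the compared groups. Under total counts alone Slc25a34 was called in WT muscle and over both genotypes. Its relative Slc25a35 had 0.27 ± 0.13 over both genotypes (adjusted p = 0.228). It shares 1151 exonic bases with Rangrf on the opposite strand, which had 2615 counts, against 1591 for Slc25a35. Their counts may not be fully separate, because no source used here gives the strand setting of the counting.

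Summed over all 37 members, the family reached 2031 to 2294 CPM in exercised MKO, 2091 to 2293 CPM in exercised WT, 1470 to 1839 CPM in sedentary MKO and 1611 to 1863 CPM in sedentary WT muscle. All exercised libraries were above all sedentary ones. Without Slc25a3 and Slc25a25 the sums were 966 to 1022 CPM, 965 to 1030 CPM, 779 to 1024 CPM and 910 to 977 CPM in the same groups, which overlap.

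The second question was whether the response to the run differed between MKO and WT muscle. By edgeR's test of the difference, 0 of 36 members passed, as did 0 of all genes, where 1 member and 3.69% of all genes had an unadjusted p under 0.05. DESeq2 and limma-voom also gave 0 members, where DESeq2 called 3 of 24018 genes. The member under that p was Slc25a14, a brain-enriched relative of the uncoupling proteins with 0.685, 0.889 and 0.719 CPM in exercised MKO, 1.06, 1.48 and 0.959 CPM in exercised WT, 1.27, 0.735 and 1.69 CPM in sedentary MKO and 1.1, 0.877 and 0.686 CPM in sedentary WT muscle. Its exercised MKO libraries were all below the exercised WT ones. The responses differed by -1.08 ± 0.46 on the log2 scale (adjusted p = 0.983). Next came Slc25a34 at 1.26 ± 0.59 and Slc25a45 at 0.90 ± 0.45 (adjusted p = 0.983 for both).

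The third question was how MKO and WT muscle differed in each state. Between exercised MKO and exercised WT muscle 0 of 36 members passed, against 0.0345% of all genes (0.0069% higher and 0.0276% lower). DESeq2 called 0 of 26 members there and 120 of 9123 genes. Without exercised MKO replicate 2, edgeR called 0 members and 108 genes, against 5 genes with all libraries. An unadjusted p under 0.05 was reached by 4 members, and by 16% of all genes. Between sedentary MKO and sedentary WT muscle 0 members passed, against 0.0069% of all genes, and 0 members and 3.76% of all genes had an unadjusted p under 0.05. DESeq2 called 0 members and 2 of 24018 genes there. Over both states 0 members passed by edgeR, against 0.0138% of all genes, with 4 members and 15.5% of all genes at an unadjusted p under 0.05. DESeq2 called 0 members and 134 of 16553 genes, and edgeR without exercised MKO replicate 2 called 0 members and 163 genes, against 2 genes with all libraries.

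Groups did not overlap for 10 of 36 members between exercised MKO and exercised WT muscle, against 23.1% of all genes. Slc25a10, Slc25a37, Slc25a1, Slc25a45, Slc25a34 and Slc25a38 were higher in every exercised MKO library, as were 11.1% of all genes, and Slc25a16, Slc25a30, Slc25a36 and Slc25a14 lower, as were 12%. At rest 4 members did not overlap, against 10.3% of all genes. Slc25a39, Slc25a10 and Slc25a24 were higher in MKO, as were 5.43% of all genes, and Slc25a51 was lower, as were 4.91%. None of these passed the test.

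Slc25a10 (ENSMUSG00000025792, chr11:120491840-120499187, plus strand), the dicarboxylate carrier, had the lowest p over both states. It had 3.56, 3.26 and 4.53 CPM in exercised MKO muscles, 2.76, 2.88 and 1.84 CPM in exercised WT muscles, 3.53, 3.34 and 3.27 CPM in sedentary MKO muscles and 1.92, 2.83 and 3.09 CPM in sedentary WT muscles. Every MKO library lay above every WT library, the single member of which this held, against 1.04% of all genes, 0.497% with MKO higher and 0.545% with it lower. The log2 fold change of MKO against WT was 0.48 ± 0.15 over both states (adjusted p = 0.189), 0.60 ± 0.21 in exercised (adjusted p = 0.231) and 0.37 ± 0.21 in sedentary mice (adjusted p = 1).

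Slc25a45 differed between exercised MKO and exercised WT muscle by 1.02 ± 0.35 (adjusted p = 0.231), at 8 to 20 counts in exercised MKO against 6 to 8 counts in exercised WT libraries. Slc25a30 differed by -0.87 ± 0.34 (adjusted p = 0.256), with exercised MKO replicate 4 lowest. Over both states Slc25a37 had 0.22 ± 0.094 (adjusted p = 0.291) and Slc25a45 0.57 ± 0.23 (adjusted p = 0.268). In sedentary mice the lowest p-values were those of Slc25a13 at 1.27 ± 0.70, Slc25a34 at -0.72 ± 0.40 and Slc25a10 at 0.37 ± 0.21, each with an adjusted p of 1. With 1 library left out these values ran from 0.71 to 2.22 for Slc25a13, from -1.06 to -0.29 for Slc25a34, nearest 0 without sedentary MKO replicate 3, and from 0.19 to 0.51 for Slc25a10. All 8 slow-fibre, 8 macrophage, 6 red blood cell and 6 fibroblast genes had positive log2 fold changes in MKO against WT muscle in both states, with 0 called, and their part in these values was not tested. The slow-fibre genes summed to 1202 to 1556 CPM in exercised MKO, 1012 to 1279 CPM in exercised WT, 115 to 1898 CPM in sedentary MKO and 595 to 1067 CPM in sedentary WT muscle.

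**Figure D4:**
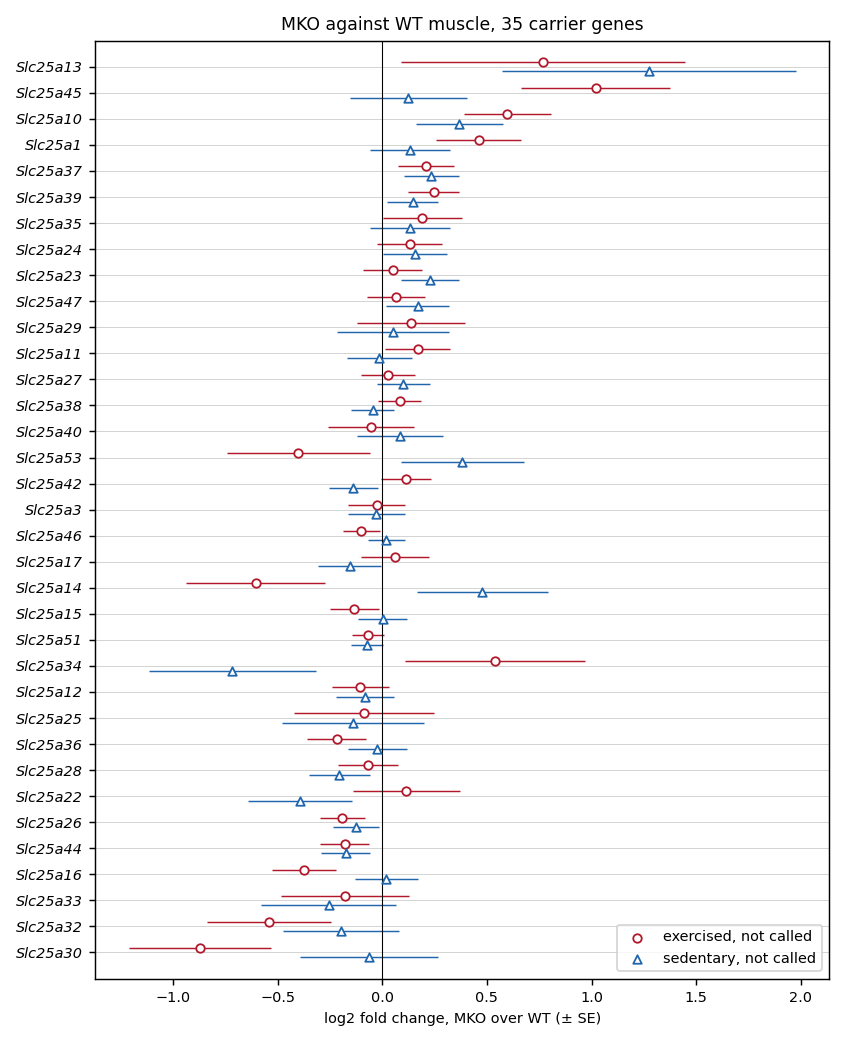
Log2 fold change of MKO over WT muscle for 35 of the 36 tested carriers, in exercised (circles) and sedentary (triangles) mice, with bars of 1 standard error. All symbols are open because no carrier was called. Slc25a45 and Slc25a30, at 1.02 and -0.87, are the outermost values in exercised mice, and Slc25a13 at 1.27 in sedentary mice has the longest bar.

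Sedentary MKO replicate 3 held the lowest of the 12 values for 10 of 36 members, against 12.7% of all genes, and the highest for 5, against 11.4%. Slc25a3, Slc25a11, Slc25a12, Slc25a33 and Slc25a34 were among those at their lowest there. The median deviation of members from the median over libraries was -0.12 on the log2 scale there, against 0.01 for all genes. Exercised WT replicate 5 held the lowest value of 3 members and exercised MKO replicate 4 of 5. With all 3 left out, 7 members were called over both genotypes, namely Slc25a17, Slc25a25, Slc25a33, Slc25a34, Slc25a37, Slc25a45 and Slc25a47, while Slc25a3 was not (adjusted p = 0.0647). In MKO muscle Slc25a25 alone was then called, and Slc25a33 was not (adjusted p = 0.187). In WT muscle Slc25a17, Slc25a25, Slc25a33 and Slc25a34 were called, and Slc25a45 and Slc25a47 were not (adjusted p = 0.0635 and 0.0626).

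**Figure D5:**
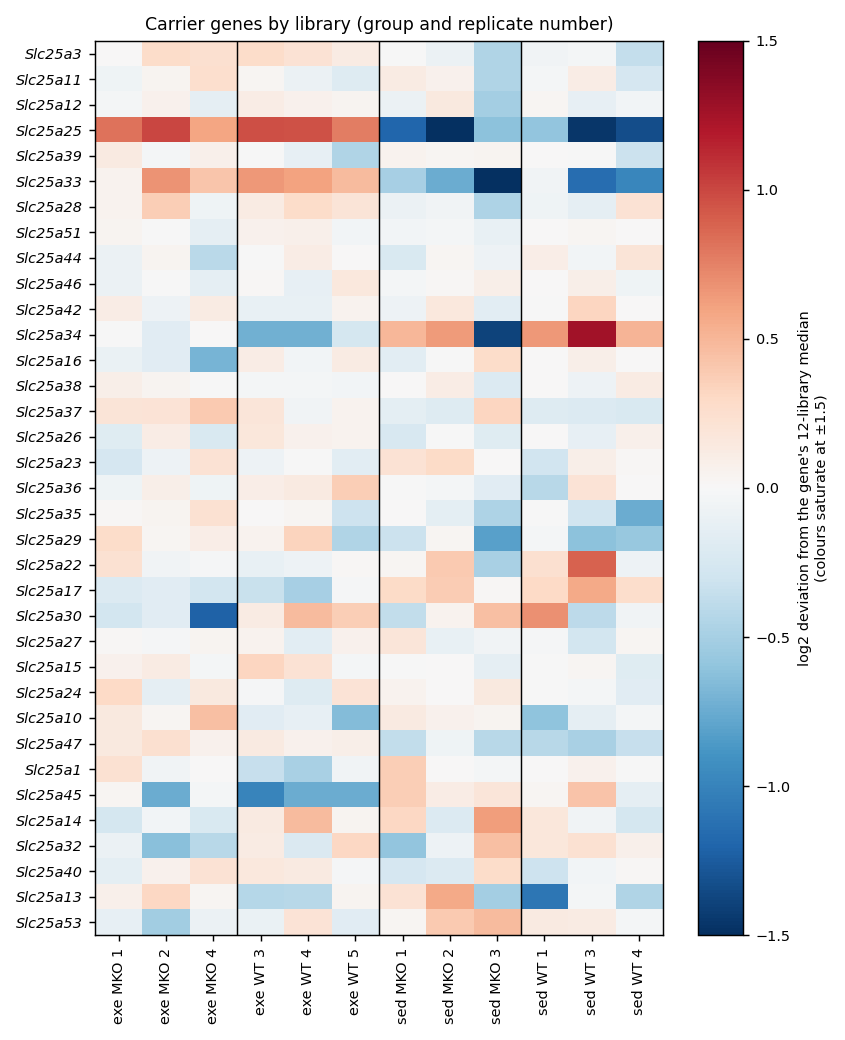
Deviation of 35 of the 36 tested carriers in each library from its median over the 12 libraries, in log2 units with 0.5 CPM added, with libraries across and carriers down in order of level. Red is above and blue below the median. Sedentary MKO replicate 3 is blue for Slc25a3, Slc25a11, Slc25a12, Slc25a33 and Slc25a34, and the exercised libraries are red for Slc25a25.

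Carriers outside the rule were set beside the family. Mtch1, an outer membrane relative that inserts proteins, rose in exercised muscle over both genotypes, with a log2 fold change of 0.69 ± 0.079 (adjusted p = 0.000135). Slc25a5, an adenine nucleotide translocator, rose by 0.46 ± 0.082 (adjusted p = 0.00262). Ucp3, the muscle uncoupling protein, fell, with -0.63 ± 0.12 (adjusted p = 0.00385). The other 4 tested of the 8 genes on that list, Slc25a4, Slc25a20, Ucp2 and Mtch2, were not called, and Ucp1 was at 0 counts.

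Partners of the carriers gave 0 calls in every comparison. These were 6 genes of pyruvate and outer membrane entry, among them the mitochondrial pyruvate carrier subunits Mpc1 and Mpc2, 6 enzymes of the malate-aspartate and glycerol phosphate shuttles, 13 genes of the TOM70 and TIM22 import route, and 7 of the calcium uniporter. Their median log2 fold changes over both genotypes were 0.042, -0.0061, 0.0031 and 0.049 in that order, against -0.00047 for all genes. Between exercised MKO and exercised WT muscle 11 of 13 import genes and 6 of 7 uniporter genes had positive log2 fold changes, against 51.1% of all genes. Their medians were 0.16 and 0.19, against 0.007 for all genes. Genes within a list are not independent of each other, and this direction was not tested. Directions in the other partner lists and comparisons are not given.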

How the data were processed

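Expression was measured by RNA sequencing of 12 libraries, 3 per group, from kits and runs described in the labels' protocols, which speak of 18 libraries. The values are raw counts per Ensembl gene, as deposited by the authors. Per the submitters' processing notes, GRCm38.p6 and mm10 were the builds, and StringTie 2.1.4, DESeq2 1.40.2, HISAT2 2.2.1, FastQC 0.12.1, SAMtools 1.9 and R 4.3 were used, with no role or order given. The counting tool, its strand setting, its handling of multiply mapped reads and its annotation were not given in the sources used here. Overlapping genes may therefore share reads. A misspelt column name was read as that of exercised MKO replicate 4, since every other library had its own.

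Symbols, positions and exon lengths came from GENCODE M21 (GRCm38.p6). The exon length of a gene was that of all its annotated exons merged over all transcripts. A symbol was found for 42462 of 43432 identifiers, and those without held 0.0915% of the counts. Promoter windows of 250 bases before the start came from RefSeq and were found for 27 members.

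Counts were tested with edgeR 4.0.16 in R 4.3.3, with filterByExpr (minimum count 10, minimum total 15, leaving 14486 genes), TMM factors (0.928 to 1.15), 1 quasi-likelihood model over all 12 libraries (1 mean for each group, 8 residual degrees of freedom), and Benjamini-Hochberg adjustment over all genes tested. Adjusted p-values in the text are from that test unless another is named. Of the 7 comparisons, 3 set exercised against sedentary muscle (MKO, WT and both), 3 set MKO against WT (exercised, sedentary and both), and 1 was the difference of the responses. Comparisons that share a group are not independent of each other. A biological coefficient of variation of 15.3% was fitted, and standard errors were taken from the F statistic. A total of 3 counts in a library corresponds to 0.181 to 0.222 CPM, depending on the normalised size of the library. The script was tested on simulated data.

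Members, gene lists, roles and the rule for named genes were chosen with earlier results of these data known. Named are members called in any comparison, the 3 of lowest p where none was called, and 10 chosen for their role in muscle. The values of 1 member are not reported here, though counts and sums over the members include it. Alternatives were DESeq2 1.42.0, limma-voom (limma 3.58.1), median-of-ratios factors, total counts alone, each library left out in turn, a replicate block, fits to only the compared groups, no filter, and at least 1 CPM in 3 libraries as the filter. Omitting the 3 outlying libraries together was added after seeing the data. Figures were drawn with matplotlib 3.10.9.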

Additional observations from a re-analysis of the deposited data

How the results depend on the processing

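Over both genotypes the 6 calls became 5 to 8 when 1 library was left out and 5 to 7 under the other alternatives, always within 1.5 times. In MKO muscle the 2 calls became 1 to 2 with 1 library left out, and 1 with no filter, with only the compared groups, with a replicate block and with the 3 outlying libraries left out together. In WT muscle the 5 calls became 1 to 6 with 1 library left out and 3 with a replicate block. DESeq2 called 2 higher and 3 lower members in WT muscle. The counts of 0 between genotypes and for the difference of responses were 0 under all alternatives.

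Over both genotypes the directions of some members that were not called turned, and the cause was not tested: 12 of 36 members were positive under total counts alone, against 21. With the 3 outlying libraries left out, the log2 fold changes were, among others, -0.040 for Slc25a11, -0.13 for Slc25a13, 0.046 for Slc25a30 and 0.018 for Slc25a44. With total counts alone they included -0.059 for Slc25a11 and -0.015 for Slc25a12. With 1 library left out they ran from -0.0079 to 0.11 for Slc25a11, from -0.040 to 0.72 for Slc25a13 and from -0.099 to 0.0096 for Slc25a44.

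Of 35 member results, 19 kept their direction and their side of the threshold in all alternatives run, and among 710 values 47 lost and 12 gained a call. A replicate block is no test of pairing here: same-numbered libraries deviated from their group means with correlations of -0.15 to 0.076. Under it Slc25a45 over both genotypes was no longer called (adjusted p = 0.0514), nor was Slc25a3 (adjusted p = 0.0933), and Slc25a29 was (adjusted p = 0.0295), and all genes called fell to 602 in WT muscle, against 1193 without it. With the compared groups alone or a filter of 1 CPM, some low members gave no value. Depth limits the low members, with 6 to 29 counts per library for Slc25a45.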
